A study of Mus musculus with 6 samples.

Results

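Interferon regulatory factors (IRFs) are transcription factors that share a tryptophan-rich DNA-binding domain and bind GAAA repeats in the promoters of interferons and of the genes that interferons induce. The 8 genes Irf1, Irf2, Irf3, Irf4, Irf5, Irf7, Irf8 and Irf9 were taken from the gene count table by gene name, 8 of its 53715 genes, and all 8 passed the filter on low counts. The RNA was poly(A) RNA of the piriform cortex, which receives input from the olfactory bulb, sequenced in bulk from Gad2-Cre mice, which make Cre recombinase in cells that express the GABA-synthesising enzyme Gad2. The Caspase3 group (3 libraries) had received the adeno-associated virus AAV-DIO-Caspase3, in which caspase 3, a protease that executes apoptosis, depends on Cre. The GFP group (3 libraries) had received AAV-DIO-GFP, so that both groups carried the Cre allele and a virus injected on 1 side. Age, sampled hemisphere and interval after injection are not given in the labels used here, nor whether each library stands for its own animal. The spread that the p-values measure is therefore that of the libraries, and part of it may be technical.

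The family works in layers. IRF3 and IRF7 rest in the cytoplasm until the kinases TBK1 and IKKε phosphorylate them after viral or cellular nucleic acid is sensed, and then switch on interferon genes. IRF9 has no kinase step of that kind: it acts below the interferon receptor, with STAT2, in the complex ISGF3, which binds the interferon-stimulated response element (ISRE). IRF1 is made after interferon gamma, whose signal reaches genes through the gamma-activated site (GAS), and IRF2 occupies the same DNA and is known as its antagonist. IRF8 and IRF5 are factors of myeloid cells, microglia among them, and IRF4 is best known from lymphocytes and dendritic cells.

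Total counts lay between 20424581 and 26268377 per library, so that 3 counts were worth 0.118 to 0.142 CPM (counts scaled by library total and TMM factor). Gad2, the gene that drives Cre, fell from a mean of 104.7 CPM in the GFP libraries (SD 12.8) to one of 34.4 CPM in the Caspase3 libraries (SD 6.67), with edgeR giving an adjusted p of 0.00371. Libraries stood apart within their groups. Caspase3 replicate 1 had the highest CPM of Irf1, Irf5, Irf7, Irf8 and Irf9. In GFP replicate 3 the summed level of 8 striatal neuron markers was 1155 CPM, against 189 to 297 CPM in the other libraries. Cortical excitatory neuron markers summed to 1143 to 1702 CPM over the 6 libraries, and no list used here contains a marker that is particular to the piriform cortex.

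Promoters of the members are shown to describe the elements next to their start sites. RefSeq (GRCm38.p6) gave promoters for all 8 members, 11 in all, each from 250 bases before to 50 after a start site. Each was searched on both strands for the ISRE core, a pair of GAAA blocks with any 2 bases between them, the GAS TTCNNNGAA, which reads the same on both strands, and the ETS-IRF composite, GGAA and GAAA spaced in the same way, at which PU.1 binds with IRF4 or IRF8. Of 32851 promoters of this length, 3.44% held the first, 8.30% the second and 2.72% the third. Irf1 (chr11:53769764-53770063, plus strand) held a GAS 90 to 82 bases upstream of the start. Irf8 (chr8:120736108-120736407, plus strand) held a GAS at 171 to 163 bases and another at 153 to 145 bases upstream. Irf2 (chr8:46739495-46739794, plus strand) held all 3 elements, the composite at 247 to 238, the ISRE at 241 to 232 and the GAS at 224 to 216 bases upstream, with the first pair overlapping. The 300-base windows of Irf7 (chr7:141266375-141266674, minus strand), of Irf9 (chr14:55603735-55604034, plus strand, the first of a pair of start sites), of Irf3, Irf4 and Irf5, and the second windows of Irf1, Irf8 and Irf9 did not contain these letters. The 5 sequences are given 5′ to 3′, with matches in capitals.
Irf1: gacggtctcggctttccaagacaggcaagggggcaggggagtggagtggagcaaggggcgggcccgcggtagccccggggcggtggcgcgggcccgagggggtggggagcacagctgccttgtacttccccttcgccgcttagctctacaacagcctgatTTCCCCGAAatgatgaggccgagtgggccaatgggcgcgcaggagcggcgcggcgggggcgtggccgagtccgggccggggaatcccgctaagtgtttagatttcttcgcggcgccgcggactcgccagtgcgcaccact
Irf8: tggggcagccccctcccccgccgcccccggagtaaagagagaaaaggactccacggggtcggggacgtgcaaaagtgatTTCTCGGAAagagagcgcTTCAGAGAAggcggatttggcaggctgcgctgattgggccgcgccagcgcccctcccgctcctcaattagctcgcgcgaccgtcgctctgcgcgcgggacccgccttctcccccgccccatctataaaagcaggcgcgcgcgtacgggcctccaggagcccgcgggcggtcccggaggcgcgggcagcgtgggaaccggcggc
Irf2: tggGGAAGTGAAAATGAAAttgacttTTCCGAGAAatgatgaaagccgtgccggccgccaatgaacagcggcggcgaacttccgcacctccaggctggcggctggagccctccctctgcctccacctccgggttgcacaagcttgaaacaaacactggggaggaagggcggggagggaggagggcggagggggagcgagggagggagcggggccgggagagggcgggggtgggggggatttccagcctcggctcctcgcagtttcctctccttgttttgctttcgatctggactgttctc
Irf7: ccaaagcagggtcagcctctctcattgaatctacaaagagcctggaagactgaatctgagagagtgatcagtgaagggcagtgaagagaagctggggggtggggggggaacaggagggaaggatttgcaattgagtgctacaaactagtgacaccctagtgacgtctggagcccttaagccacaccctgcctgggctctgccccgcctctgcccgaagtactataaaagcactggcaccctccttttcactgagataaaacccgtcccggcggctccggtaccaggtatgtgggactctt
Irf9: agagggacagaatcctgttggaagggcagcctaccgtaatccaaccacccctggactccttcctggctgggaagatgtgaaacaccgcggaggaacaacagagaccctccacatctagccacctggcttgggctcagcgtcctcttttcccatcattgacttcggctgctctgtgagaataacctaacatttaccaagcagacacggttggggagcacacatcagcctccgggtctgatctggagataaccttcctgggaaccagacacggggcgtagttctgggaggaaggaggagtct
A match is a description of the sequence and not a measured binding site, and its part in the differences between the groups was not tested.

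Irf7, Irf9, Irf8 and Irf1 rose in the Caspase3 group, by 17.2-fold, 4.87-fold, 2.67-fold and 2.59-fold. Irf2, Irf3, Irf4 and Irf5 did not pass the test. None of the 8 fell in edgeR, DESeq2 or limma-voom, and 7 were higher and 0 lower at an unadjusted p under 0.05, where 6.72% of all tested genes were higher and 3.91% lower. Of 16721 genes tested, 1.53% were called higher and 0.114% lower, against 4 and 0 of the 8 members. The members were chosen with earlier results of these data known, so these shares are a description. The median log2 fold change of the 8 was 1.12, beside -0.001 over all genes tested. For 6 members the groups had no overlap in CPM, all higher in the Caspase3 group, where 8.96% of all tested genes had groups that did not overlap in that direction. In bulk RNA a change in the number of cells of a type and a change in RNA per cell cannot be told apart.

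**Figure D1:**
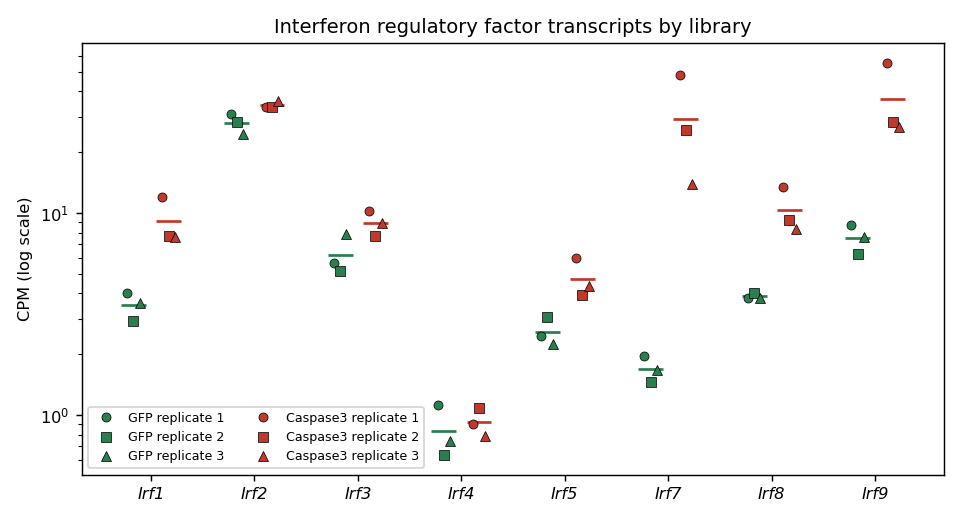
CPM on a log axis for each of the 8 genes in each of the 6 libraries (points, with the symbol giving the replicate number) and the group means (lines). The Caspase3 libraries of Irf7 lie between 14.0 and 48.3 CPM and the GFP libraries between 1.46 and 1.96 CPM, while the groups of Irf3 and Irf4 overlap.

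Irf7, the factor that amplifies type I interferon production, had the largest difference of the family. Its counts were 1019, 564 and 354 in Caspase3 replicates 1, 2 and 3 and 42, 37 and 38 in GFP replicates 1, 2 and 3, which are 48.3, 25.6, 14.0, 1.96, 1.46 and 1.67 CPM. The lowest Caspase3 library lay above the highest GFP library by a wide margin, but the Caspase3 libraries themselves differed more from each other than the GFP libraries did. The means were 29.3 ± 17.5 and 1.70 ± 0.247 CPM (SD, n = 3 each), a difference of 4.11 ± 0.44 (SE) on the log2 scale (adjusted p = 0.00405, edgeR). Irf7 (ENSMUSG00000025498, chr7:141262706-141266481, GRCm38) shares 45 exonic bases, 1.19% of its exons, with Phrf1 on the opposite strand, and Phrf1 was at 39.6 ± 3.06 and 37.7 ± 2.34 CPM (adjusted p = 0.852).

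Irf9, the DNA-binding subunit of ISGF3, was the most abundant of the 4 that rose in the GFP group. Its CPM values were 55.3, 28.2 and 26.7 in Caspase3 replicates 1, 2 and 3 and 8.76, 6.26 and 7.64 in GFP replicates 1, 2 and 3. Caspase3 replicate 1 was high and the other two lay close together, and the groups did not overlap. The means were 36.8 ± 16.1 and 7.55 ± 1.25 CPM (SD, n = 3 each), a log2 fold change of 2.28 ± 0.28 (SE; adjusted p = 0.00569, edgeR). Irf9 (ENSMUSG00000002325, chr14:55603571-55610030) shares 123 exonic bases, 2.28%, with Rnf31 on the same strand. Rnf31, a subunit of the linear ubiquitin ligase complex, stood at 18.3 ± 3.28 and 12.9 ± 2.74 CPM and did not pass (log2 fold change 0.51, adjusted p = 0.352), and the part of shared reads in the value of Irf9 was not tested.

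Irf8 and Irf1 had similar fold changes. Irf8, the lineage factor of microglia and other myeloid cells, stood at 13.5, 9.28 and 8.36 CPM in Caspase3 replicates 1, 2 and 3 and at 3.82, 4.0 and 3.82 CPM in GFP replicates 1, 2 and 3. The GFP libraries were nearly level, and every Caspase3 library was at least at 8.36 CPM. Its log2 fold change was 1.42 ± 0.20 (SE; adjusted p = 0.00938, edgeR). Irf1, the activator of class I presentation and guanylate-binding protein genes, stood at 12.04, 7.69 and 7.57 CPM in Caspase3 replicates 1, 2 and 3 and at 4.01, 2.93 and 3.60 CPM in GFP replicates 1, 2 and 3. Caspase3 replicate 1 was again the highest, and the groups did not overlap. The log2 fold change was 1.37 ± 0.23 (SE; adjusted p = 0.019, edgeR). On log2(FPKM + 1), a scale that shrinks low values, Irf1 differed by 0.78 and missed the threshold (limma, adjusted p = 0.0501), where 0.957% of all genes were called higher.

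Irf5, a myeloid factor downstream of Toll-like receptors, had groups that did not overlap but did not pass. It stood at 5.97, 3.91 and 4.34 CPM in Caspase3 replicates 1, 2 and 3 and at 2.47, 3.05 and 2.24 CPM in GFP replicates 1, 2 and 3. Its fitted log2 fold change was 0.87 ± 0.23 (SE; adjusted p = 0.144, edgeR). With no filter on low counts it passed (0.87, adjusted p = 0.0205), in a fit that called 2.1% of all genes higher. Irf5 shares 411 exonic bases, 14.1% of its exons, with Tnpo3 on the opposite strand, a nuclear import receptor that stood at 101.8 ± 6.89 and 103.3 ± 1.48 CPM (adjusted p = 0.953). Neither labels nor headers say whether counting used strand, and the part of Tnpo3 reads in the value of Irf5 was not tested.

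The members known for steady expression had small differences. Irf2, the antagonist of IRF1, stood at 33.6, 33.6 and 35.9 CPM in Caspase3 replicates 1, 2 and 3 and at 31.1, 28.1 and 24.5 CPM in GFP replicates 1, 2 and 3. The groups did not overlap, yet the log2 fold change was 0.30 ± 0.11 (SE, adjusted p = 0.351 in edgeR). Irf3, which starts the first wave of interferon beta, stood at 10.2, 7.73 and 8.95 CPM in Caspase3 replicates 1, 2 and 3 and at 5.68, 5.15 and 7.86 CPM in GFP replicates 1, 2 and 3. GFP replicate 3 lay above Caspase3 replicate 2, and the log2 fold change was 0.52 ± 0.19 (SE; adjusted p = 0.355, edgeR). Irf3 shares 88 exonic bases with Bcl2l12 on the opposite strand, which stood below 1 CPM in both groups.

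Irf4, the lymphocyte factor, was the rarest member, with 63 counts over the Caspase3 libraries and 57 over the GFP libraries. It stood at 0.9, 1.09 and 0.789 CPM in Caspase3 replicates 1, 2 and 3 and at 1.12, 0.634 and 0.747 CPM in GFP replicates 1, 2 and 3, so the groups overlapped throughout. The log2 fold change was 0.16 ± 0.33 (SE; adjusted p = 0.903, edgeR), and a difference was not detectable at this depth. Of 8 B and plasma cell markers 2 were tested, Ighm and Pax5, and neither passed. The list summed to 15.7 to 33.0 CPM in the Caspase3 and up to 26.2 CPM in the GFP libraries, most of it Ighm. Of 12 T and NK cell markers 5 were tested and Cd3e, Cd8a and Cd8b1 rose, with a summed level of 5.21 to 10.3 CPM over the list in the Caspase3 libraries and 1.46 to 5.14 CPM in the GFP libraries. The highest GFP value came from replicate 3, where Cd4 stood at 4.13 CPM, and without that library the GFP maximum was 2.42 CPM.

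**Figure D2:**
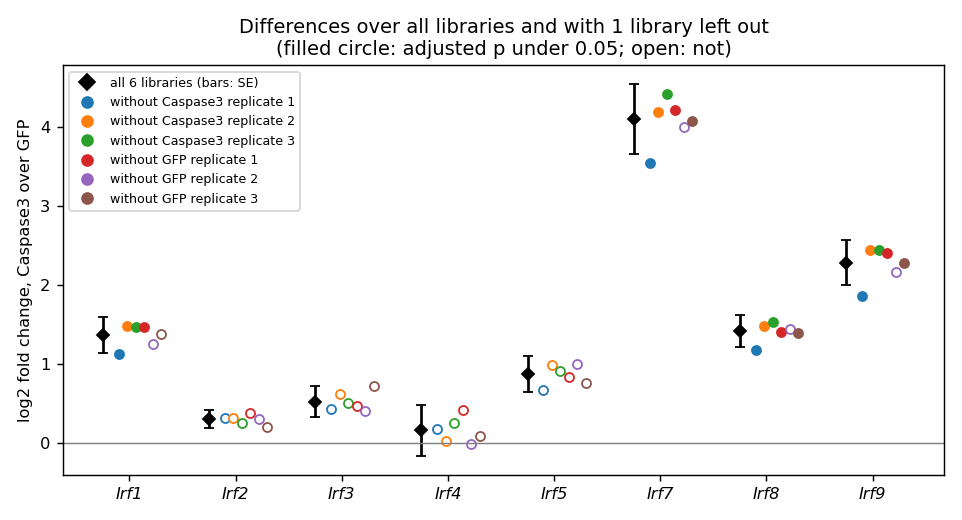
Log2 fold change of each gene over all 6 libraries (diamond, with its SE) and with each library left out in turn (circles, filled where the adjusted p was under 0.05). The circles of Irf7 lie between 3.55 and 4.43 and those of Irf8 between 1.18 and 1.53, and all are open without GFP replicate 2.

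The calls depended on single control libraries more than the fold changes did. Without GFP replicate 2 none of the 8 members passed, with adjusted p of 0.0562 for Irf7, 0.0572 for Irf9, 0.0664 for Irf8 and 0.113 for Irf1, while their log2 fold changes were 4.01, 2.16, 1.44 and 1.25. In that fit 0.0874% of all genes were called higher, 15 of 17165. Without GFP replicate 3 Irf1 missed the threshold (log2 fold change 1.38, adjusted p = 0.06), and the other 3 passed, beside 0.767% of all genes called higher. Leaving out both Caspase3 replicate 1 and GFP replicate 3, a choice made after seeing the data, left the 4 calls in place, with log2 fold changes of 3.54, 1.88, 1.17 and 1.14 for Irf7, Irf9, Irf8 and Irf1, where 1.54% of all genes were called higher.

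The order of the family by level differed between the groups. Levels of different genes are given as CPM per kilobase of deposited gene length, and the order depends on that length. In the GFP group Irf2 was highest at 3.78 ± 0.442 CPM per kilobase (SD, n = 3), followed by Irf3 at 1.81 ± 0.418, Irf9 at 1.40 ± 0.233, Irf5 at 0.89 ± 0.143, Irf1 at 0.884 ± 0.137, Irf8 at 0.55 ± 0.0146, Irf7 at 0.45 ± 0.0655 and Irf4 at 0.17 ± 0.0517. Among neighbours in that order, the libraries of Irf3 and Irf9 overlapped, as did those of Irf5 and Irf1, and the others did not. In the Caspase3 group Irf7, seventh in the GFP group, had the highest mean, at 7.76 ± 4.62 CPM per kilobase, followed by Irf9 at 6.82 ± 2.99 and Irf2 at 4.65 ± 0.182. The libraries of Irf7 and Irf9 overlapped, and in Caspase3 replicate 3 Irf7, at 3.70, lay below Irf2, at 4.86. Irf3, Irf1, Irf5 and Irf8 followed at 2.60, 2.29, 1.63 and 1.47 CPM per kilobase, each overlapping its neighbour, and Irf4 stood at 0.189 ± 0.0312.

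The summed level of the 8 genes was 37.7, 23.6 and 20.9 CPM per kilobase in Caspase3 replicates 1, 2 and 3 and 10.6, 9.33 and 9.84 in GFP replicates 1, 2 and 3. Irf7 made up 33.9%, 28.8% and 17.7% of that sum in the Caspase3 libraries and 4.88%, 4.16% and 4.49% in the GFP libraries. Irf2 made up 12.1%, 19.2% and 23.3% against 39.5%, 40.8% and 33.8%. The shares of Irf1 (7.90% to 9.48% over all 6 libraries) and of Irf8 (5.07% to 6.08%) overlapped between the groups.

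**Figure D3:**
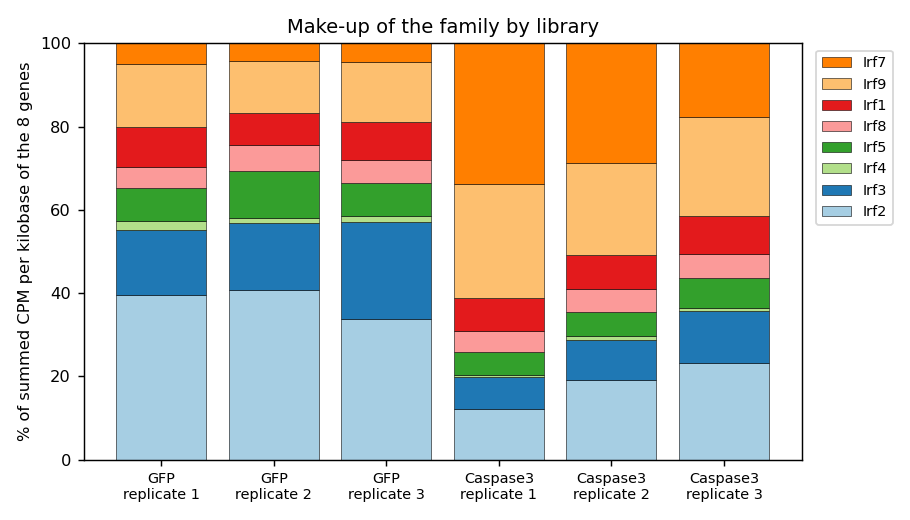
Share of each gene in the summed CPM per kilobase of the 8 genes (stacked bars, in percent) for each library. Irf7 and Irf9 take up more of the bar in the 3 Caspase3 libraries and Irf2 less, and the Irf1 and Irf8 segments stay at 7.90% to 9.48% and 5.07% to 6.08%.

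Ratios of 2 counts within a library do not depend on library scaling, and 9 were compared with exact two-sided permutation tests. With 3 libraries against 3 the smallest possible p is 0.1, so none can pass 0.05. The Irf7 to Irf3 ratio, of the inducible to the constitutive interferon-activating factor, was 4.74, 3.32 and 1.56 in Caspase3 replicates 1, 2 and 3 and 0.344, 0.285 and 0.212 in GFP replicates 1, 2 and 3. Counts of Irf7 thus exceeded those of Irf3 in every Caspase3 library and in no GFP library, a 10.6-fold difference between the groups (exact p = 0.1; 0.1125 adjusted over the 9 ratios). The Irf1 to Irf2 ratio, of activator to antagonist, was 0.358, 0.229 and 0.211 against 0.129, 0.104 and 0.147, a 2.06-fold difference without overlap (exact p = 0.1; 0.1125 adjusted). The Irf9 to Irf3 ratio differed 3.19-fold without overlap, and the Irf5 to Irf8 ratio was lower in the Caspase3 group, at 0.442, 0.422 and 0.519 against 0.646, 0.762 and 0.586 (exact p = 0.1 and 0.1125 adjusted for each).

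Microglial markers were higher in the same libraries. Of 18 microglia markers 9 rose and none fell in edgeR, beside 1.53% of all tested genes called higher and 0.114% lower. At an unadjusted p under 0.05, 14 were higher and 0 lower, where 6.72% of all tested genes were higher and 3.91% lower. The log2 fold changes of the 18 ran from 0.135 for Fcrls (adjusted p = 0.716, edgeR) to 1.47 for Trem2 (adjusted p = 0.00631). P2ry12 and Gpr34, at 0.166 and 0.196, did not pass either (adjusted p = 0.588 and 0.68). The 18 markers summed to at least 718 CPM in each Caspase3 library and to 459 to 547 CPM in the GFP libraries. Csf1r, the receptor that microglia need for survival, stood at 185 CPM in Caspase3 replicate 1, 144 in replicate 2 and 138 in replicate 3, and at 108, 88.2 and 95.1 CPM in the GFP libraries (1.60-fold, adjusted p = 0.0414, edgeR). The members Irf1, Irf5, Irf7, Irf8 and Irf9 were therefore set against the Csf1r count of the same library. The ratio of Irf8 to Csf1r was 0.0729, 0.0645 and 0.0605 in Caspase3 replicates 1, 2 and 3 and 0.0353, 0.0454 and 0.0402 in GFP replicates 1, 2 and 3. This 1.64-fold difference had no overlap (exact p = 0.1; 0.1125 adjusted). The ratio differed 1.60-fold for Irf1, 2.90-fold for Irf9 and 9.62-fold for Irf7, each without overlap and with the same p, whereas that of Irf5 overlapped between the groups (1.14-fold, exact p = 0.4; 0.4 adjusted). These differences depended on the marker chosen, as a comparison with each of 17 of these markers, added after seeing the data, showed. Irf7 and Irf9 were higher without overlap against all 17, by 5.47-fold to 14.0-fold and by 1.65-fold to 4.22-fold. Irf8 was higher without overlap against 11 of the 17, with fold differences from 0.934 (Trem2) to 2.38 (Fcrls), and Irf1 against 12, from 0.909 (Trem2) to 2.32 (Fcrls). Irf5 was higher without overlap against 3 and lower against 4, C1qa, C1qb, C1qc and Trem2. Of 13 monocyte and neutrophil markers 6 were tested and none passed, although all 6 had a log2 fold change above 0 (median 0.91). Plac8 had 57 counts over the Caspase3 libraries and 4 over the GFP libraries (log2 fold change 3.77, adjusted p = 0.0755, edgeR). Ly6c2, too low to be tested, had 42 and 2 counts. Chil3, S100a8, S100a9, Retnlg and Camp had up to 2 counts in either group. Ly6g had no count in any library, and the list summed to 73.3 to 111.7 CPM in the Caspase3 and 48.5 to 69.2 CPM in the GFP libraries. Most of that sum came from Vcan, Mrc1 and Cd163 and does not give a level of monocytes or neutrophils. Their means were 35.65, 28.56 and 16.49 CPM in the Caspase3 group and 33.7, 13.64 and 8.10 CPM in the GFP group. Ccr2 and Plac8 had means of 1.21 and 0.858 CPM against 0.708 and 0.0528 CPM. Of 9 dendritic cell markers 6 were tested and only Itgax rose, beside 1.53% of all tested genes called higher. Log2 fold changes below 0 were found for 2 of the 6 (lowest -0.456, median of the 6 0.501). The list summed to 19.6 to 26.2 CPM in the Caspase3 and 16.2 to 19.2 CPM in the GFP libraries. The part of these cells in the IRF levels was not tested. A ratio to a marker count shows unequal change of both, and which cells held the IRF transcripts was not measured.

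**Figure D4:**
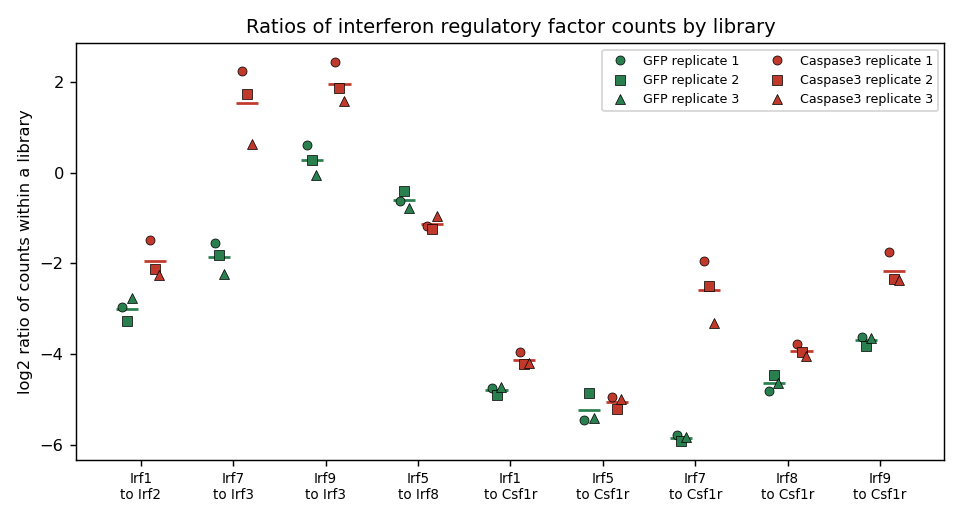
Log2 ratio of 2 counts in the same library for the 9 ratios compared (points, with the symbol giving the replicate number) and group means (lines). The groups separate for all ratios shown other than Irf5 to Csf1r.

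Genes around the IRFs were read from 8 lists, which were chosen with earlier results of these data known. The lists held 117 genes in the table. Of these, 90 were tested and 44 rose, beside 1.53% of all genes, a description and not a test of the lists. None fell in edgeR, DESeq2 or limma-voom, and at an unadjusted p under 0.05 the counts were 58 higher and 0 lower, beside 6.72% and 3.91% of all genes. Usp18, Ddx58 and Ifih1 stand in 2 lists each. DESeq2 called 46 higher, beside 1.93% of all its genes, and limma-voom 36, beside 1.29%. Without GFP replicate 2 the count was 6. Of the 22 called genes that ranked first in these lists, Ifit1, Mx2, Oas2, Mx1 and Tlr2 passed in that fit (adjusted p = 0.0494 each), and the other 17 missed the threshold, with adjusted p from 0.0502 for Cxcl10 to 0.211 for Cx3cr1.

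Upstream of the IRFs, 6 of 27 sensors, adaptors and kinases rose (median log2 fold change 0.61). The sensors Tlr3, Tlr8, Tlr9 and Mb21d1 (cGAS) did not pass, at 0.61, 1.12, 1.28 and 0.60 on the log2 scale (adjusted p = 0.159, 0.527, 0.147 and 0.53, edgeR). Yet Tlr3, Tlr9 and Mb21d1 had groups without overlap, higher in the Caspase3 libraries. Such groups were found for 14 of the 27 genes, beside 8.96% of all tested genes. Zbp1, a sensor of Z-form nucleic acid, differed by 5.38 ± 0.65 on the log2 scale (adjusted p = 0.00566, edgeR). The cytosolic RNA sensors Ifih1 (MDA5) and Ddx58 (RIG-I) rose 4.80-fold and 5.58-fold, and the endosomal RNA receptor Tlr7 2.45-fold. Dhx58 and Unc93b1, which carries endosomal Toll-like receptors to their compartment, were the others. Tbk1, which phosphorylates IRF3 and IRF7, differed by 0.001 ± 0.09 on the log2 scale (adjusted p = 0.997), and its relative Ikbke, at 0.443 ± 0.104 CPM in the GFP group, by 0.96 ± 0.35 (adjusted p = 0.347).

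Interferon transcripts themselves were at the floor of detection. Of 21 type I, II and III interferon genes in the table, 18 had no count in any library, Ifng and both interferon lambda genes among them. The other 3 had 1 count each over 6 libraries, Ifnb1 in Caspase3 replicate 1, Ifnk in Caspase3 replicate 2 and Ifna1 in GFP replicate 1. A level of up to 0.118 to 0.142 CPM per gene and library (3 counts) is not excluded at this depth, counting error only, and reads of the near-identical interferon alpha genes may be divided or dropped in counting.

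Of the receptor, JAK and STAT genes, 2 of 11 tested rose (median log2 fold change 0.42). Stat2, the partner of IRF9 in ISGF3, rose 2.63-fold (log2 fold change 1.39 ± 0.18, adjusted p = 0.00621, edgeR). The receptor subunit Ifnar1 differed by 0.07 ± 0.10 on the log2 scale (adjusted p = 0.855) and the kinase Jak1 by 0.15 ± 0.12 (adjusted p = 0.709). Ifnar2, Ifngr1 and Stat3 had groups without overlap, higher in the Caspase3 libraries, but did not pass (log2 fold changes 0.45, 0.48 and 0.42, adjusted p = 0.338, 0.182 and 0.208). Among 10 tested corepressors and negative regulators Usp18, which blocks the type I receptor, rose 19.9-fold and the ubiquitin ligase Trim21 4.44-fold, though Trim21 missed the threshold without GFP replicate 3 (adjusted p = 0.0656) and on log2(FPKM + 1) (0.0501), as Zbp1 did on that scale (0.0606). The IRF2-binding corepressors Irf2bp1 and Irf2bp2 differed by 0.09 and 0.02 on the log2 scale (adjusted p = 0.865 and 0.961). Of 3 tested DNA-binding partners of IRF4 and IRF8, Spi1 (PU.1) rose 2.79-fold and Ikzf1 2.14-fold (adjusted p = 0.0219 and 0.0322, edgeR). Batf3 did not pass (0.53 ± 0.40 on the log2 scale, adjusted p = 0.7). Batf2, Batf and Spib were too low to be tested. They had 31, 13 and 3 counts over the Caspase3 libraries and 5, 2 and 0 over the GFP libraries. The call of Spi1 was lost without Caspase3 replicate 2 or any 1 GFP library (adjusted p from 0.0509 to 0.122), and that of Ikzf1 in all such fits but the one without GFP replicate 1 (0.058 to 0.152).

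Genes downstream of ISGF3 rose without exception among the 19 listed, with a median log2 fold change of 3.90, beside -0.001 over all genes tested. Their summed level was 1238, 833 and 453 CPM in Caspase3 replicates 1, 2 and 3 and 122, 91.4 and 76.7 CPM in GFP replicates 1, 2 and 3, the same order of Caspase3 libraries as for Irf7. Ifit1, Mx2, Oas2 and Mx1, antiviral effectors, rose by 4.39, 3.83, 3.90 and 5.54 on the log2 scale (adjusted p = 0.00371 for each, edgeR). Of the 19 genes 5 were called without GFP replicate 2. Of 16 genes known as IRF1 targets, 12 rose (median 2.32), among them the chemokine Cxcl10, the guanylate-binding proteins Gbp3 and Gbp2 and the peptide transporter Tap1, with log2 fold changes of 6.86, 3.03, 2.87 and 2.38. In limma-voom Cxcl10 missed the threshold (6.68, adjusted p = 0.0684). Psmb10, Il15, Nos2 and Ciita did not pass, and Ciita, the switch of class II presentation, had a log2 fold change of -0.04 (adjusted p = 0.973). Without GFP replicate 3, 7 of this list were called, and without GFP replicate 2 none was. Cxcl10 shares 133 exonic bases with Art3, and Tap1 shares 212 with Psmb9, both on the opposite strand, and Psmb9 also rose.

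Of 7 tested myeloid genes tied to IRF8 or IRF5, 4 rose (median 0.61): Tlr2 4.39-fold, the oxidase subunit Cybb 5.57-fold, Aif1 2.54-fold and the fractalkine receptor Cx3cr1 1.53-fold. The purinergic receptors P2rx4 and P2ry12 differed by 0.38 ± 0.16 and 0.17 ± 0.09 on the log2 scale (adjusted p = 0.43 and 0.588). Aif1, Cx3cr1 and P2ry12 also stand in the microglia marker list, so these lists are not separate. Without GFP replicate 2, 1 of the 4 genes that rose was called, and without GFP replicate 3, 2 were. Leaving out 1 library at a time removed the call of Cx3cr1 in every fit (adjusted p from 0.0525 to 0.211), as did limma-voom (0.053), and that of Aif1 without GFP replicate 2 or 3 (0.114 and 0.0617).

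**Figure D5:**
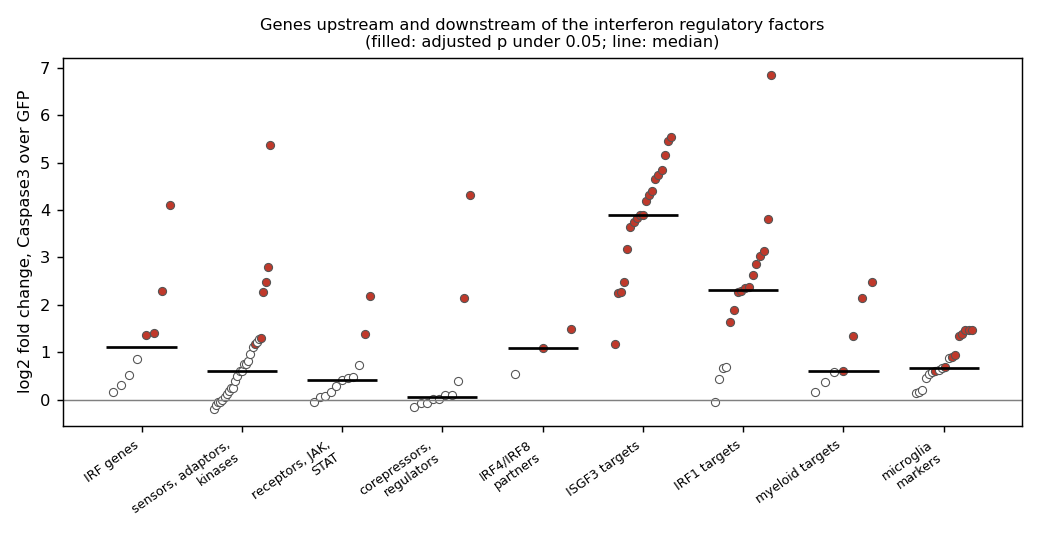
Log2 fold change of each tested gene in the IRF family, in 7 lists of genes around it and in the microglia marker list (points, filled where the adjusted p was under 0.05), with the median of each list (line). All 19 ISGF3 targets are filled. Most receptor, JAK and STAT genes (median 0.42) and most regulators (median 0.056) are open. Aif1, Cx3cr1 and P2ry12 are points of both the myeloid target and the microglia marker list.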

How the data were processed

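Poly(A) RNA of piriform cortex was measured in 6 libraries, grouped and numbered from their titles. The library kit marks the second cDNA strand with U, per the labels' protocols. The names HISAT2, featureCounts, DESeq2, mm10 and GRCm38 come from the submitters' processing notes, and roles, versions and strand setting are not given in the sources used here. Whole-number counts were deposited with names, coordinates and lengths for 53715 genes, per the file headers. All 8 members had the same name, start and end in GENCODE M21 (GRCm38), which also gave the exon overlaps. The deposited FPKM values equalled the count divided by length and by a constant per library (95.6% to 105.6% of the total count), and were used only in alternatives.

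The test was edgeR's quasi-likelihood test (version 4.0.16, R 4.3.3), with filterByExpr, TMM and group as the single term, with Benjamini-Hochberg adjustment over 16721 genes, and an adjusted p under 0.05 counted as called. The SE is the absolute log2 fold change divided by the square root of F. Ratios were tested by exact permutation in SciPy 1.17.1. Ratios to microglia use Csf1r alone in place of the marker sum first chosen; that sum and some genes of the lists are not reported here. The edgeR test was tried on simulated counts and the permutation test on made-up values. Alternatives were other scalings, filters and thresholds, DESeq2 1.42.0, limma-voom (limma 3.58.1), robust edgeR, limma on log2(FPKM + 0.1) and log2(FPKM + 1), a block for replicate number, and fits that left out each library in turn.

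The members and gene lists were chosen with earlier results of these data known. Named genes are the members, Gad2, for each pathway list the 4 called genes ranking first by adjusted p (or, with none called, the 2 tested genes of highest mean CPM), and the 3 genes most like each member whose mean exceeded 1 CPM. Ikbke, Tbk1, Dhx58, Unc93b1, Ifnar1, Jak1, Irf2bp1, Irf2bp2, Batf, Batf2, Batf3, Spib, Psmb10, Il15, Nos2, Ciita, P2rx4, P2ry12, Tlr3, Tlr8, Tlr9, Mb21d1, Ifnar2, Ifngr1, Stat3, the interferon genes and the marker and overlapping genes were named after their values were seen. Replicates differed by more than sampling noise (mean chi-square per gene 12.6 to 33.1). Floors of 3 counts cover counting error only, while the SD and SE values hold the spread between libraries. Figures were drawn with Matplotlib 3.10.9.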

Additional observations from a re-analysis of the deposited data

How the results depend on the processing

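Irf7, Irf9, Irf8 and Irf1 were the called members under all other scalings, the filter of at least 1 CPM in 3 libraries, DESeq2, limma-voom, robust edgeR and log2(FPKM + 0.1). On log2(FPKM + 1), which understates low genes, Irf1 missed the threshold (log2 difference 0.78, adjusted p = 0.0501) and that of Irf7 was 2.45. With no filter Irf5 was also called (0.87, adjusted p = 0.0205). The cause was not tested. An adjusted p under 0.01 kept 3 members, without Irf1, beside 0.682% of all genes called higher. With 1 library left out, between 0 and 4 members were called. The log2 fold changes then lay between 1.12 and 1.48 for Irf1, 3.55 and 4.43 for Irf7, 1.18 and 1.53 for Irf8, 1.87 and 2.45 for Irf9, 0.67 and 1.006 for Irf5, and -0.009 (without GFP replicate 2) and 0.42 for Irf4, the 1 difference that changed sign. The count over the lists around the IRFs was 44, between 6 and 42 with 1 library left out, and 33 to 53 under the other alternatives. No ratio to another member changed sign under its alternatives. With 1 library left out, the ratios to Csf1r differed by 0.59 to 0.73 (log2) for Irf1, 0.08 to 0.38 for Irf5, 2.95 to 3.63 for Irf7, 0.62 to 0.80 for Irf8 and 1.33 to 1.65 for Irf9. With other single markers as denominator, chosen after seeing the data, Irf1 changed sign against Aif1 (-0.009), C1qa (-0.085), C1qc (-0.075) and Trem2 (-0.137), and Irf8 against C1qa (-0.047), C1qc (-0.036) and Trem2 (-0.099). Irf5 did so against Tmem119 (-0.002), Selplg (-0.08), Aif1 (-0.497), C1qa (-0.573), C1qb (-0.469), C1qc (-0.562) and Trem2 (-0.625). The cause was not tested. Whether the replicate numbers pair the samples is not given in the labels. Same-numbered libraries had correlations of their deviations from the group means of 0.065, 0.178 and 0.027, too weak to decide it. Caspase3 replicates 2 and 3 correlated best with the GFP library of the same number, and Caspase3 replicate 1 with GFP replicate 3 (0.079). With the replicate block the same 4 members were called, the lists held 46 calls, and 421 genes were called in all against 274. All genes called in either direction numbered 913 with no filter, 497 in DESeq2, 170 on log2(FPKM + 1), 17 without GFP replicate 2 and 144 without GFP replicate 3.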

Other observations

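For the 7 members other than Irf4, whose means exceeded 1 CPM, the genes most like each were found by Pearson's r of log2 CPM over the 6 libraries, among 11327 or 11328 other genes whose mean reached 5 CPM. With few libraries, and groups that did not overlap for most of the members and genes named below, r holds the group difference. It is given as a description. Tor3a (r = 0.998) and Usp18 were among the 3 genes most like Irf7. Irf9 was most like Ifitm3 (r = 0.999), Tlr13, a microbial RNA receptor, and Irf1. Irf1 was most like Pik3ap1 (r = 0.998), Irf9 and Ifitm3. Irf8 was most like Arhgdib (r = 0.997), Isg15 and Psme2. Of the genes named so far all rose, with Arhgdib the least (log2 fold change 0.91, adjusted p = 0.0425 in edgeR), whose call was lost with each single library removed (adjusted p from 0.0598 to 0.152) and in limma-voom (0.0629). Psme2 missed it without Caspase3 replicate 2 or any 1 GFP library (0.0547 to 0.121), and Pik3ap1 and Tlr13 without GFP replicate 2 or 3. Ifitm3, Tor3a, Usp18 and Isg15 also missed it without GFP replicate 2 (0.0645, 0.0568, 0.0562 and 0.0562).

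The members that did not pass had other neighbours, none of which passed. Irf5 was most like Psmb10 (r = 0.998), the lysosomal protease Ctsl and Whamm. Irf3 was most like Gm6563 (r = 0.992), Abcd4 and Trim65. Irf2 was most like Angpt1 (r = 0.983), Prkag2 and Tmsb10. Between members, Irf9 and Irf1 had an r of 0.998 and Irf7 and Irf8 one of 0.992, while Irf4 had an r between 0.108 and 0.467 with the other 7 members.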
